A study of Spodoptera exigua with 2 samples.

Results

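Genes that rise after bacterial challenge were examined in hemocytes of the beet armyworm, *Spodoptera exigua*. A gene was taken as a member when it held at least 20 CPM in the challenged library and its level there was at least 2.2 times the naïve level, with 0.5 molecule added to each sum. The unit CPM is the number of transcript molecules of a gene, summed over cells, per 1000000 molecules of all genes. Of the 13002 genes in the files, 4057 reached 20 CPM in the challenged library and 76 of these also passed the ratio (1.87%). Leaving out 5 loci with known immune names, as the rule asks, gave 71 members. The members were chosen from the contrast of the challenged and the naïve library, so every ratio between these libraries is a description and nothing is supported by it.

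The study injected newly molted larvae of instar 5 with 140000 heat-killed *Escherichia coli* TOP10 cells per larva, or with phosphate-buffered saline (PBS) for the naïve larvae. Both groups thus received an injection into a proleg, and hemocytes were collected from the hemolymph 8 h later. Each group was measured in 1 single-cell RNA library made from pooled hemolymph, so no value has a replicate error and no test between the groups was possible. The 95% intervals given below are exact and cover counting error only.

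Hemocytes are the circulating immune cells of insects, and they engulf, encapsulate and melanize intruders and secrete antimicrobial peptides. Bacterial peptidoglycan is bound by peptidoglycan recognition proteins (PGRPs), and signalling through the IMD and Toll pathways then turns on genes of antimicrobial peptides such as the cecropins, which damage bacterial membranes. In Lepidoptera these peptides come from the fat body as well as from hemocytes. The deposited files give genes by locus number without names, and none of the 71 members could be paired with a name or a role. They are therefore described by locus number, level and cell cluster.

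The naïve library held 14840 cells with at least 200 genes and the challenged library 12524, with 81236890 and 94496277 molecules (UMIs, unique molecular identifiers). The median depth was 3347 UMIs per naïve cell and 5282 per challenged cell, and 44 cell barcodes occurred in both libraries. Hemocyte genes were present in both: the prophenoloxidase genes *PPO1* and *PPO2*, whose products start melanization, had 4269 and 4183 CPM in the naïve library and 5992 and 5117 CPM in the challenged library. The 3 muscle loci, as markers of other tissue, summed to 114 and 61.0 CPM, and their part in the results was not tested. Called doublets made up 2.91% of the naïve and 1.55% of the challenged cells and were kept.

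The members together summed to 4413 CPM in naïve and 19317 CPM in challenged hemocytes, which is a ratio of 4.38. The ratios of single members ran from 2.22 to 101 with a median of 2.96, against a median of 1.05 over the 4057 genes at the same floor. The ratio was at least 3 for 35 members, at least 5 for 21 and at least 10 for 9. In the naïve library the members had a median of 19.6 CPM (0.702 to 613), and 36 of them lay under 20 CPM. In the challenged library the median was 80.0 CPM (20.1 to 2353). The plot of levels in both libraries shows the members of the largest ratios, SPEXI_LOCUS11075 and SPEXI_LOCUS1946, at low naïve levels, while the most abundant member, SPEXI_LOCUS410, had a ratio of 13.0.

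**Figure D1:**
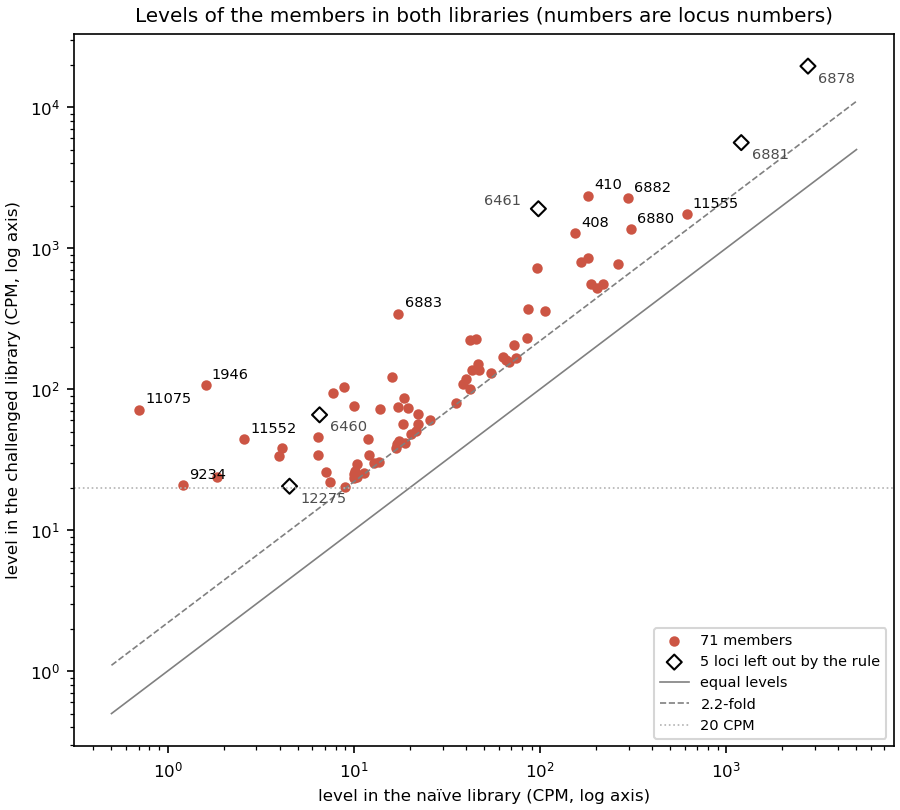
Level of each member in the naïve library (horizontal, CPM, log axis) and in the challenged library (vertical, CPM, log axis), with the 5 loci left out by the rule as open diamonds. All 71 members lie above the 2.2-fold line and the 20 CPM line by construction, and SPEXI_LOCUS11075 and SPEXI_LOCUS1946 stand farthest from equal levels.

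Some members were close to absent in naïve hemocytes. SPEXI_LOCUS11075 had 57 UMIs in the naïve library, or 0.702 CPM (interval 0.531 to 0.909), and 6751 UMIs or 71.4 CPM (69.7 to 73.2) in the challenged library. Its ratio of 101 (78.5 to 135) was the largest of the members. SPEXI_LOCUS1946 went from 1.60 CPM (1.34 to 1.90) to 107 CPM (105 to 109), a ratio of 66.8 (56.4 to 80.3). In both genes the rise was held mainly by cluster 7, described below. When each cell was scaled to the same total, the ratio of SPEXI_LOCUS1946 was 15.7 and that of SPEXI_LOCUS11075 was 78.6.

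The next members by ratio differed in naïve level, and SPEXI_LOCUS9234 lay below SPEXI_LOCUS1946. SPEXI_LOCUS6883 went from 17.4 to 343 CPM, a ratio of 19.7 (18.7 to 20.9). SPEXI_LOCUS11552 went from 2.57 to 44.4 CPM and SPEXI_LOCUS9234 from 1.21 to 20.9 CPM, both with a ratio of 17.2. SPEXI_LOCUS8320 (1.85 to 24.0 CPM), SPEXI_LOCUS11298 (7.71 to 94.3 CPM) and SPEXI_LOCUS6995 (8.89 to 104 CPM) had ratios of 13.0, 12.2 and 11.7. The remaining members among the 15 largest ratios were SPEXI_LOCUS176 (9.17), SPEXI_LOCUS10154 (8.40), SPEXI_LOCUS9962 (7.59) and SPEXI_LOCUS9233 (7.53), together with 3 abundant members described next.

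A few abundant members made up much of the rise. The 5 members with at least 1000 CPM in the challenged library held 46.6% of the members' UMIs there. SPEXI_LOCUS410 had the highest level, with 181 CPM (178 to 184) in naïve hemocytes and 2353 CPM (2344 to 2363) after challenge and a ratio of 13.0. SPEXI_LOCUS6882 went from 295 to 2263 CPM (ratio 7.67) and SPEXI_LOCUS408 from 154 to 1271 CPM (ratio 8.28). SPEXI_LOCUS11555 and SPEXI_LOCUS6880 were the most abundant of these in naïve hemocytes, at 613 and 307 CPM, and had 1747 and 1366 CPM after challenge. Their ratios, 2.85 and 4.45, were smaller. SPEXI_LOCUS409 (180 to 856 CPM), SPEXI_LOCUS6506 (166 to 792 CPM), SPEXI_LOCUS5827 (261 to 774 CPM) and SPEXI_LOCUS10397 (96.0 to 718 CPM) followed. SPEXI_LOCUS8579, SPEXI_LOCUS68, SPEXI_LOCUS2502, SPEXI_LOCUS7753 and SPEXI_LOCUS9014 reached 552, 552, 522, 371 and 356 CPM, with ratios of 2.52, 2.93, 2.59, 4.29 and 3.35.

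The 5 named loci that the rule leaves out give a scale for these values. Cecropin B (SPEXI_LOCUS6878) went from 2745 to 19530 CPM, a ratio of 7.12, so this gene alone held slightly more UMIs in the challenged library than the 71 members together. Cecropin A1 (SPEXI_LOCUS6881) went from 1203 to 5601 CPM. PGRP-LB (SPEXI_LOCUS6461), whose *Drosophila* counterpart degrades peptidoglycan and dampens IMD signalling, went from 98.0 to 1902 CPM, a ratio of 19.4. Of 20 loci tied to recognition, Toll signalling, antimicrobial peptides and melanization, these 5 passed the limits and none of the other 15 did. Among all genes at the floor, 1.87% passed the ratio. The other 15 had a median ratio of 1.19. Of the 20, 1 lay at or below the inverse fold, SPEXI_LOCUS1095, a Toll locus with at most 0.0492 CPM. Its ratio of 0.287 had an interval of 0.00436 to 2.17, so it was not shown to be lower. The small PGRP locus SPEXI_LOCUS12278 had a ratio of 3.54 but only 7.21 CPM after challenge. *PPO1*, *PPO2*, *Pelle* (SPEXI_LOCUS6804) and *MyD88* (SPEXI_LOCUS11397), the last pair being components of Toll signalling, had ratios of 1.40, 1.22, 1.19 and 0.981. Spodoptericin (SPEXI_LOCUS9978), an antimicrobial peptide, had 1421 and 1119 CPM, a ratio of 0.787.

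To find which cells carried the rise, the cells of both libraries were clustered without the members, the left-out loci and 90 further genes that differed most between the libraries. This gave 32 clusters, of which 24 held at least 50 cells of each library. The clusters were described by the marker list that led them at least 2-fold over all cells, and were given no cell type name. Clusters 3, 6, 8, 11, 15, 24 and 26 were led by the SPARC list. It holds SPARC, which encodes a secreted matrix-binding protein, hemocytin and a locus without a name. Clusters 12, 17, 18, 28, 29 and 30 were led by a hemicentin 1-like gene and clusters 1, 4, 10 and 13 by the cathepsin list. The latter holds pro-cathepsin H, a gene like a digestive cysteine proteinase and an uncharacterized locus. Cluster 5 was led by the PPO genes and clusters 0, 16 and 21 by the calphotin list. Clusters 2, 7, 9, 14, 19, 25 and 27 had no leading list. The summed level of the members was higher in the challenged library in each of the 24 compared clusters, by ratios from 1.21 to 6.80.

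By class, the clusters with no leading list held 39.6% of the summed rise, the SPARC-high clusters 29.1% and the clusters led by hemicentin 1-like 20.5%. The summed level of the members went from 4638 to 21817 CPM in the first of these classes, from 5958 to 25434 CPM in the second and from 5158 to 28850 CPM in the third. The PPO-high cluster went from 1483 to 7234 CPM, a ratio of 4.88, but held 4.86% of the rise. In the cathepsin-high clusters the members went from 1466 to 4475 CPM, a ratio of 3.05, and in the calphotin-high clusters from 3063 to 9559 CPM, a ratio of 3.12. These classes held 1.61% and 0.599% of the rise. Cluster 22, led by SPEXI_LOCUS5543 and SPEXI_LOCUS5542, went from 2107 to 6185 CPM and held 2.34%. A rise in the summed level was thus present in every class, while its bulk lay in cells outside the PPO, cathepsin and calphotin classes. A class's share of the rise also depends on its share of UMIs. Of challenged UMIs, the clusters with no leading list held 35.6%, the SPARC-high clusters 23.4% and those led by hemicentin 1-like 12.04%. The PPO-high cluster held 11.99%, the cathepsin-high clusters 7.36% and the calphotin-high clusters 2.36%. The shares of the rise therefore do not rank the classes by the fold of their rise.

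Within the classes, 3 clusters held most of the rise. Cluster 6 held 29.5% of it, cluster 14 held 22.6% and cluster 17 held 14.2%, and these 3 clusters made up 18.8% of challenged cells against 1.43% of naïve cells. Cluster 14 consisted of 630 challenged cells and 0 naïve cells, which allows a naïve share of up to 0.0202%, and its summed member level of 66239 CPM was the highest of all clusters. Cluster 17 had 42 naïve and 486 challenged cells and went from 6124 to 39666 CPM. Cluster 6 had 170 naïve and 1240 challenged cells and went from 12119 to 37982 CPM, so its naïve cells already had the highest member level among the compared clusters. A cluster that comes almost wholly from 1 library may reflect that library rather than a cell type, and with 1 library per group these cannot be told apart. Cluster 7, whose cells had a median of 21323 UMIs, held 674 naïve and 689 challenged cells, went from 1933 to 9979 CPM and added 1642 of the 14904 CPM of the summed rise. Called doublets were 1.63% of cluster 6, 0.159% of cluster 14, 11.9% of cluster 17 and 6.02% of cluster 7, and their part in these levels was not tested beyond leaving them out.

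**Figure D2:**
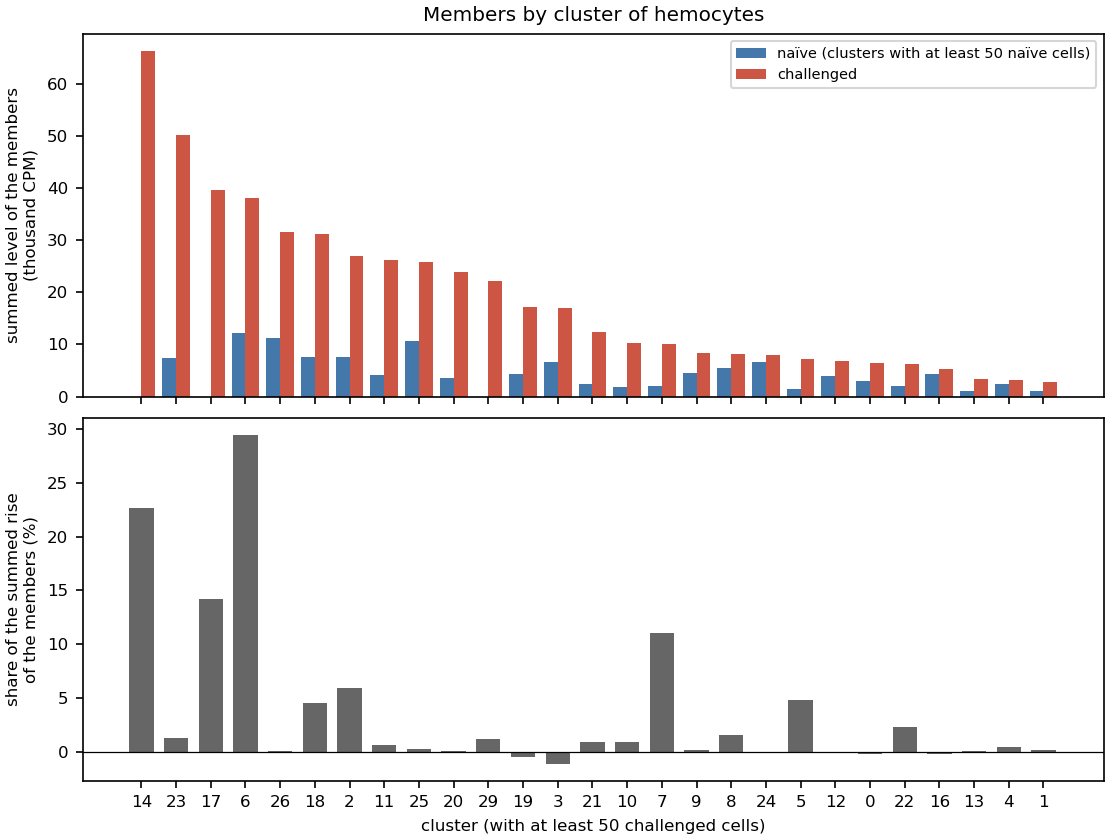
Upper panel, summed level of the 71 members in each cluster with at least 50 challenged cells (CPM, in units of 1000; naïve bars only for clusters with at least 50 naïve cells). Lower panel, share of the summed rise held by each cluster (%), with cluster 6 at 29.5%, cluster 14 at 22.6% and cluster 17 at 14.2%. Clusters 0, 3, 16 and 19 lie slightly below 0.

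The rise was split into a part from levels within the 24 compared clusters, a part from changed shares of these clusters in the library and a part from the other 8 clusters. Levels within clusters held 62.8% of the summed rise (9354 CPM), changed shares 0.370% and the other clusters, mainly 14 and 17, 36.9% (5495 CPM). The 0.370% is a net value in which gains and losses of share cancel, so it does not mean that shares stayed the same. Cluster 6 went from 1.58% of naïve to 12.1% of challenged UMIs. Cluster 2 went from 15.7% to 7.66% and cluster 3 from 10.6% to 3.16%. Per member the median share within clusters was 64.2%, and 51 of the 71 members had more than 50% of their rise there. For 10 members more than 50% came from clusters without 50 cells in each library. Among these were SPEXI_LOCUS8320 with 63.9%, SPEXI_LOCUS11555 with 55.7%, SPEXI_LOCUS408 with 50.8% and SPEXI_LOCUS1830 with 81.4%.

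**Figure D3:**
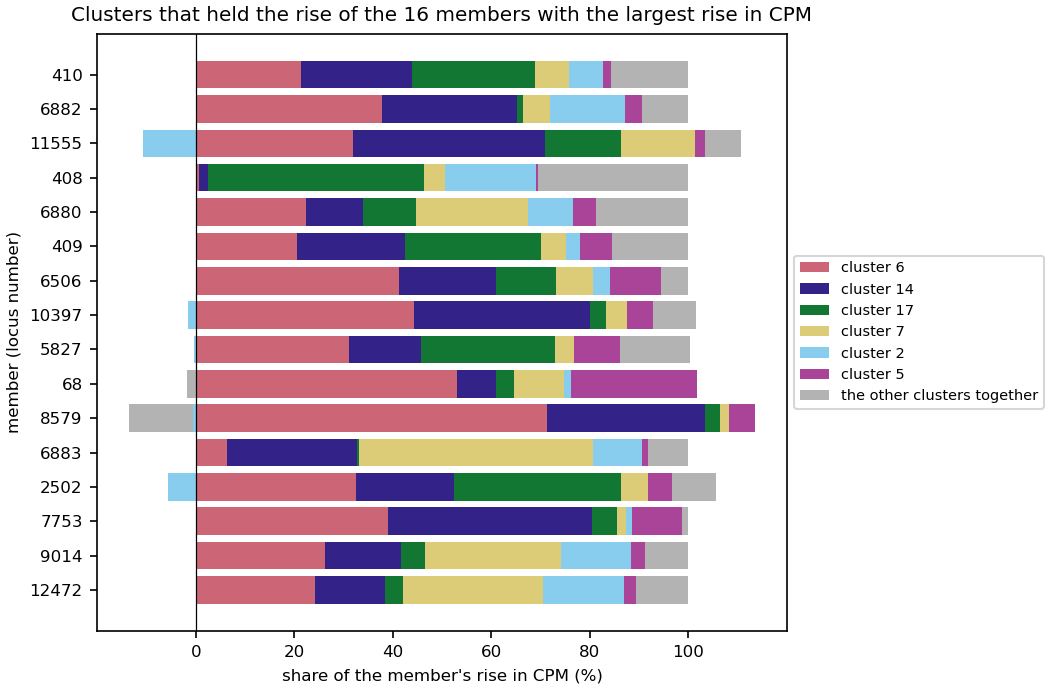
Share of each member's rise in CPM (horizontal, %) held by clusters 6, 14, 17, 7, 2 and 5 and by the other clusters together, for the 16 members with the largest rise; bars left of 0 are clusters that held less of the member after challenge. SPEXI_LOCUS408 takes 43.9% from cluster 17, SPEXI_LOCUS6883 takes 47.6% from cluster 7 and SPEXI_LOCUS8579 takes 71.4% from cluster 6.

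The members that rose in all of the clusters were few. In 2 members, SPEXI_LOCUS410 and SPEXI_LOCUS408, the ratio lay above 1 beyond its counting interval in each of the 24 compared clusters. Among the 4057 genes at the floor this held for 3 (0.0739%), and the third was cecropin B. No member, and no gene at the floor (0%), was at least 2.2-fold higher in all 24 clusters. The ratio of SPEXI_LOCUS410 was lowest in clusters 24 (1.73), 8 (1.79) and 9 (1.82) and at least 2.2 in 21 clusters. It went from 35.8 to 476 CPM in cluster 0, from 25.5 to 323 CPM in cluster 5, from 40.1 to 813 CPM in cluster 7 and from 419 to 5984 CPM in cluster 18, so the gene was higher in cells led by PPO, calphotin and hemicentin genes alike. SPEXI_LOCUS408 was at least 2.2-fold higher in 22 clusters, with its lowest ratios in clusters 21 (2.05) and 12 (2.11). It went from 380 to 3489 CPM in cluster 2 and from 1027 to 7813 CPM in cluster 18, but only from 3.20 to 26.8 CPM in cluster 5 and from 2.68 to 18.7 CPM in cluster 8.

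Free RNA of a more abundant transcript can add molecules to every cell of a library, and its part in these low levels was not tested. The lowest challenged levels of SPEXI_LOCUS410 and SPEXI_LOCUS408 were 90.7 CPM in cluster 13 and 18.7 CPM in cluster 8, against 2353 and 1271 CPM in the whole library.

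A further 12 members had a ratio above 1 beyond the counting interval in at least 20 of the 24 clusters, which makes 14 members in all. This held for 0.518% of the 4057 genes at the floor, and the median gene at the floor met it in 4 clusters against 14 for the median member. SPEXI_LOCUS6880, SPEXI_LOCUS6882, SPEXI_LOCUS6506 and SPEXI_LOCUS11555 missed 1 cluster each: cluster 24 for the first pair, with ratios of 0.949 and 1.05, cluster 16 for SPEXI_LOCUS6506 and cluster 25 for SPEXI_LOCUS11555. SPEXI_LOCUS6883 and SPEXI_LOCUS10397 missed 2 clusters. SPEXI_LOCUS1791 and SPEXI_LOCUS409 missed 3, and SPEXI_LOCUS11075, SPEXI_LOCUS4897, SPEXI_LOCUS68 and SPEXI_LOCUS7753 missed 4.

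With a fold of at least 2.2 asked in addition to the interval, 7 members passed in 20 or more of the 24 clusters. Among all genes at the floor, 10 did (0.246%). SPEXI_LOCUS6883, SPEXI_LOCUS6882, SPEXI_LOCUS6880 and SPEXI_LOCUS408 passed in 22 clusters each, SPEXI_LOCUS410 in 21, and SPEXI_LOCUS11075 and SPEXI_LOCUS1791 in 20. SPEXI_LOCUS1946 passed in 19, and 4 further clusters had the fold with an interval that spanned 1, such as cluster 20 with 1 UMI in each library. The median member passed in 11 clusters and the median gene at the floor in 0. At the other end, 18 members passed in 6 clusters or fewer, where the median gene at the floor also lay. Over all 1704 pairs of a member and a compared cluster, the ratio was at least 2.2 in 956. In 813 of these the interval also lay above 1. Of all pairs with a gene at the floor, 5.76% and 3.96% met these limits. The ratio lay above 1 beyond the counting interval in 1023 of the member pairs and below 1 beyond it in 40. Of all pairs with a gene at the floor, 20.5% and 15.6% were of these kinds. Of the members, 44 had no cluster with a ratio below 1 beyond the interval. The share of all genes at the floor without such a cluster is not given.

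**Figure D4:**
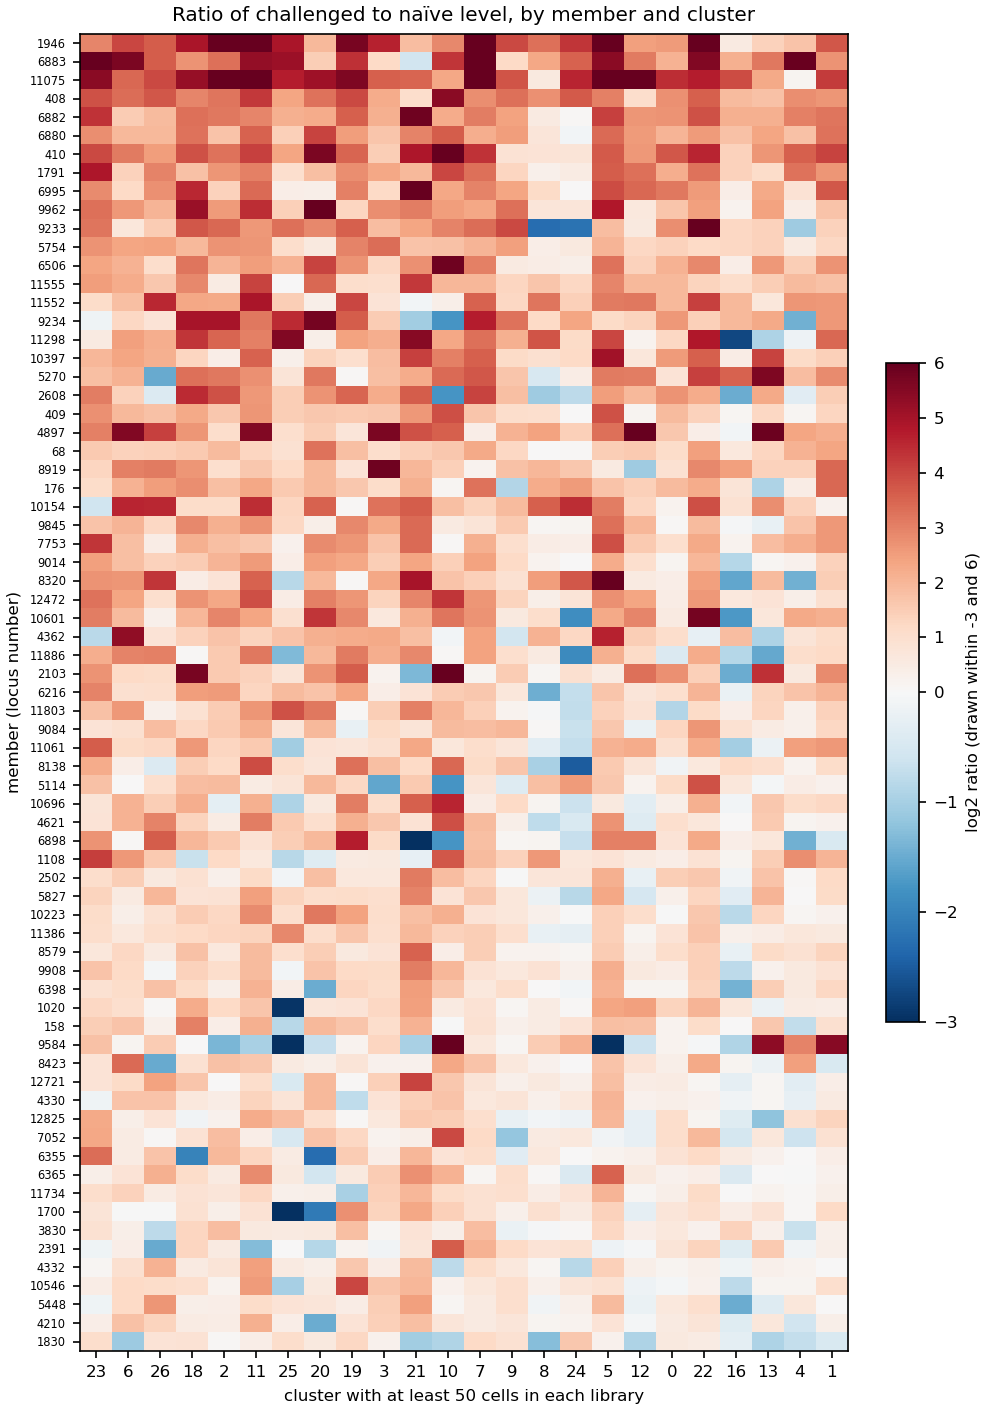
Log2 ratio of the challenged to the naïve level for the 71 members (lines, by number of clusters with at least 2.2-fold) in the 24 clusters holding 50 or more cells of both libraries (columns, by summed challenged level), with 0.5 UMI added to each sum; red is higher and blue lower in the challenged library. SPEXI_LOCUS6883 and SPEXI_LOCUS408 are red across nearly all columns, some strong colours of rare members rest on 0 to 3 UMIs, and the paler columns at the right include clusters 16 and 4, where fewer members rose.

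Clusters differed in how many members were at least 2.2-fold higher. These counts include members with few UMIs. The count that also had an interval above 1 was lower by the most in cluster 20, at 22 of 43. Percentages in brackets below are the share of all genes at the floor that were at least 2.2-fold higher in the same cluster. Cluster 5, led by the PPO genes, had 59 of the 71 members at least 2.2-fold higher (5.84% of the genes at the floor) with a median member ratio of 4.25. In cluster 11, which is SPARC-high, the count was 60 (10.2% of the genes at the floor), and in cluster 22 it was 53 (2.81%). Cluster 6 had 50 (4.76%) and cluster 7 had 47 (2.19%). The other SPARC-high clusters 3 and 26 had 42 (4.66%) and 42 (15%), and the cathepsin-high clusters 1, 4, 10 and 13 had 45 (3.57%), 24 (3.55%), 48 (8.82%) and 38 (2.88%). Clusters 12 and 18, led by the hemicentin 1-like gene, had 30 (1.65%) and 50 (3.3%), the calphotin-high clusters 0 and 21 had 27 (1.38%) and 55 (18.9%), and the hemicentin 2-like cluster 23 had 44 (5.79%). Clusters 2, 9, 19 and 25 had 44 (2.05%), 31 (2.81%), 46 (7.96%) and 27 (6.06%). Cluster 20, led by the muscle list with only 1 of its 3 loci at least 2-fold over all cells, had 43 (15.6%). The lowest counts were 16 in cluster 16 (4.66%), 17 in cluster 8 (1.7%) and 18 in cluster 24 (2.14%), with median member ratios of 1.14, 1.37 and 1.29. Clusters 8 and 24 are SPARC-high like clusters 6 and 11, so the size of the rise differed among clusters that the same marker list led. The summed member level there went from 5376 to 8098 CPM in cluster 8 and from 6593 to 8006 CPM in cluster 24.

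The 5 members whose rise was most concentrated in 1 cluster were SPEXI_LOCUS1108, SPEXI_LOCUS2391, SPEXI_LOCUS8423, SPEXI_LOCUS1830 and SPEXI_LOCUS8579. SPEXI_LOCUS1108 took 84.7% of its rise from cluster 6, where it went from 80.4 to 496 CPM. SPEXI_LOCUS2391 took 83.7% from the cathepsin-high cluster 10, where it went from 111 to 1381 CPM, while it was at 160 and 150 CPM in cluster 4 of the same class. SPEXI_LOCUS8423 took 76.3% from cluster 7 (22.5 to 74.3 CPM) and SPEXI_LOCUS1830 took 76.2% from cluster 17 (34.6 to 213 CPM). SPEXI_LOCUS8579 took 71.4% from cluster 6, where its level went from 885 to 2089 CPM. Cluster 6 was the largest source of the rise for 31 members, cluster 7 for 14, cluster 14 for 13 and cluster 17 for 8. The same counts over all genes at the floor are not given. Cluster 6 also grew from 1.58% to 12.1% of UMIs, so it could be a source without a higher level in its cells. SPEXI_LOCUS1700 had 330 naïve and 2913 challenged UMIs there, but its level was 258 and 256 CPM.

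After challenge, 24 members had their highest level in cluster 14, 9 in cluster 26, 8 in cluster 23, and 6 each in clusters 17 and 25. The same counts over all genes at the floor are not given. Clusters 26 and 25 were small and shallow, with 93 and 179 challenged cells that had medians of 767 and 1002 UMIs. Cluster 14 was highest for SPEXI_LOCUS6882 (10628 CPM), SPEXI_LOCUS11555 (8696 CPM) and SPEXI_LOCUS10397 (4371 CPM). The neighbouring numbers SPEXI_LOCUS408, SPEXI_LOCUS409 and SPEXI_LOCUS410 were highest in cluster 17, at 9087, 3473 and 10019 CPM. Cluster 23, led by a hemicentin 2-like gene and another locus, had the highest levels of SPEXI_LOCUS6880 (7369 CPM), SPEXI_LOCUS6506 (4154 CPM) and SPEXI_LOCUS6883 (2446 CPM) with 169 naïve and 152 challenged cells. Its summed member level went from 7390 to 50227 CPM, the largest ratio of the compared clusters at 6.80.

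The cluster with the highest level was compared between the libraries. The highest cluster was the same in both libraries for 19 of the 71 members, and for 30 members the highest challenged cluster had fewer than 50 naïve cells. Over the 24 compared clusters, which share libraries and depth, the Spearman correlation of a member's naïve and challenged levels had a median of 0.73 (0.21 to 0.95). The median over the 4057 genes at the floor was 0.82.

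Single cells were compared after thinning each cell to 1000 UMIs, which left 12157 naïve and 11458 challenged cells. The median naïve cell then held 3 UMIs of the members and the median challenged cell 8. The upper quartile was 6 in naïve and 27 in challenged cells, and cells with 20 or more member UMIs made up 2.68% and 31.8%. No member UMI was found in 13.6% of naïve and 4.08% of challenged cells. The median number of different members per cell was 2 against 6. The plot of members' UMIs per cell shows a long upper tail in the challenged library, and clusters differed in it. In cluster 14 the median was 65 UMIs of 1000 from 21 members, in cluster 23 it was 55, in cluster 17 it was 40 and in cluster 6 it was 36, while it was 2 in the cathepsin-high cluster 1 and 3 in cluster 4.

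**Figure D5:**
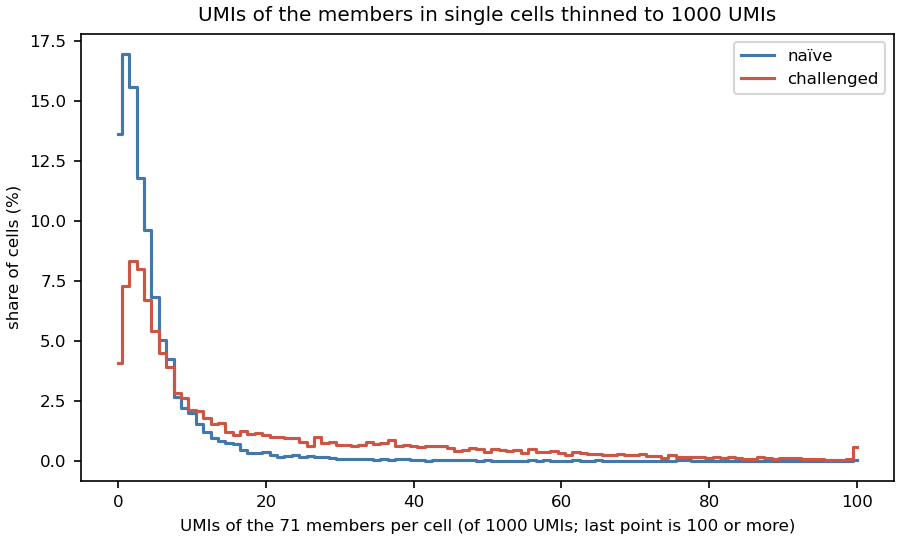
Share of cells (vertical, %) by the number of UMIs from the 71 members in each cell after thinning to 1000 UMIs (horizontal; the last point holds cells with 100 or more), for 12157 naïve and 11458 challenged cells. The naïve curve falls steeply from a median of 3 UMIs, and the challenged curve, with a median of 8, extends to 66 UMIs at its upper 5%.

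The share of cells with a UMI rose for the abundant members at equal depth. SPEXI_LOCUS410 was found in 10.2% of thinned naïve and 42.6% of thinned challenged cells (21.4% and 60.9% without thinning). In challenged cells its share was 98.4% in cluster 14 and 6.25% in cluster 13, the cluster with the lowest share, whose challenged cells had a median of 2680 UMIs before thinning. SPEXI_LOCUS6882 was found in 14.3% and 41.3% of thinned cells (26.1% and 61.9% without thinning), with 9.12% in its lowest challenged cluster. SPEXI_LOCUS408 was found in 7.72% and 19.6% (13.8% and 34.5% without thinning), with 95.3% in cluster 17 and 0.699% in cluster 24. The rare member SPEXI_LOCUS11075 was found in 0.0329% and 2.74% (0.182% and 8.17% without thinning). Over the members, the median share of thinned challenged cells was 5.88% (20.9% without thinning).

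Locus numbers of some members lie close together. Among the members and the 5 left-out loci there were 6 runs in which neighbours differed by at most 3, and 12 of the 71 members lay in them. The numbers were consecutive lines in the files, but positions in the genome were not used here, and reads shared between near-identical copies were not tested. SPEXI_LOCUS408, SPEXI_LOCUS409 and SPEXI_LOCUS410 were all members, and their challenged levels over the 27 clusters with at least 50 challenged cells had Spearman correlations from 0.68 to 0.86. SPEXI_LOCUS6880, SPEXI_LOCUS6882 and SPEXI_LOCUS6883 had numbers next to those of cecropin B and cecropin A1. The level of SPEXI_LOCUS6880 followed that of cecropin B closely over these clusters (Spearman correlation 0.94), and those of SPEXI_LOCUS6882 and SPEXI_LOCUS6883 less so (0.67 and 0.63). SPEXI_LOCUS6879 between them had 4 and 25 UMIs. SPEXI_LOCUS11552 and SPEXI_LOCUS11555 were members, and the loci between them, SPEXI_LOCUS11553 and SPEXI_LOCUS11554, were abundant with smaller ratios of 1.80 and 1.42.

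Likeness to cecropin B was also computed for every member over 27 clusters of each library. The Spearman correlation was above 0.5 for 15 members in naïve and 26 in challenged cells, which is 21.1% and 36.6% of the members, with medians of 0.28 and 0.37. Of the 3981 other genes at the floor, 2.08% and 2.39% were above 0.5, with medians of 0.10 and 0.07. Cecropin B passed the same limits as the members, so a higher likeness than in other genes can follow from that choice. The difference is a description only. In the challenged library the closest members were SPEXI_LOCUS6880 (0.94), SPEXI_LOCUS11555 (0.89), SPEXI_LOCUS6216 (0.84), SPEXI_LOCUS12472 (0.81) and SPEXI_LOCUS9233 (0.81). These points share the library, its depth and its free RNA, and SPEXI_LOCUS2391 (-0.58) and SPEXI_LOCUS9584 (-0.35) had the lowest values.

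The thresholds cut through a continuum. The members just inside the ratio limit were SPEXI_LOCUS2391 and SPEXI_LOCUS3830 at 2.22 and SPEXI_LOCUS6355 at 2.23, and the genes just outside were SPEXI_LOCUS1112 at 2.18 and SPEXI_LOCUS9098 and SPEXI_LOCUS5272 at 2.16. At the level limit, SPEXI_LOCUS12721 (20.1 CPM), SPEXI_LOCUS9234 (20.9 CPM) and SPEXI_LOCUS8423 (21.8 CPM) lay inside and SPEXI_LOCUS6236 (19.96 CPM), SPEXI_LOCUS7453 (18.2 CPM) and SPEXI_LOCUS11649 (16.9 CPM) outside.

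Because clusters 6, 14 and 17 held so much of the rise, the sums were repeated without them, a choice made after the values were seen. Without the cells of cluster 14, 53 members still had a ratio of at least 2.2 and all 71 were at least 1.5-fold higher. Without clusters 6, 14 and 17, the summed level of the members went from 4278 to 11889 CPM, a ratio of 2.78, and 38 of the 71 members had a ratio of at least 2.2. SPEXI_LOCUS11061 and SPEXI_LOCUS6898 then had ratios of 0.919 and 0.975. SPEXI_LOCUS11075, SPEXI_LOCUS1946, SPEXI_LOCUS6883 and SPEXI_LOCUS410 had ratios of 157, 70.7, 17.3 and 6.28 in the same cells.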

How the data were processed

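The matrices deposited by the authors hold unnormalized UMI counts, 1 value for a gene in a cell, for barcodes already called as cells. The matrix header names Cell Ranger 7.2.0, and the genome build is not given in the sources used here. Cells with at least 200 genes were kept, and counts were summed per library or cluster and scaled to CPM. Ratios have exact conditional and shares exact Clopper-Pearson 95% intervals, computed with scipy 1.17.1. Cells were clustered in Seurat 5.3.0 (5000 variable genes, 30 principal components, 20 neighbours, resolution 0.8). The 71 members, the 5 left-out loci and 90 other genes whose median log2 ratio over first-pass clusters lay beyond 1 in either direction (166 in all) were left out of clustering, so 4838 genes were used. Scrublet in scanpy 1.11.5 called 2.91% and 1.55% of cells as doublets against 11.9% and 10.0% expected, so doublets can remain. Thinning to 1000 UMIs left out 2683 naïve (18.1%) and 1066 challenged cells (8.51%), and thresholds on shallow cells can set such shares. Reads shared between near-identical copies were not tested. Named members are the 15 with the largest ratio, the 15 with the highest challenged level, the 5 with the largest rise among members rising in every cluster, the 5 most concentrated in 1 cluster and those beside a threshold. Other members named for their cluster pattern or locus number were chosen after their values were seen. The members, the marker list and the immune list were chosen with earlier results of these data known. Scripts were tested on simulated data. Alternatives changed the cell filter, doublets, scaling (edgeR 4.0.16 TMM among them), added UMIs, thresholds and clustering, and 3 sets of left-out clusters were added after seeing the data.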

Additional observations from a re-analysis of the deposited data

Results flagged for a closer look

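Of the 40 pairs of a member and a cluster in which the level was lower in the challenged library beyond the counting interval, 6 are given here. They held at least 100 UMIs and either had a ratio at or below the inverse of 2.2 or concerned 1 of the 15 members with the largest ratios. The difference between these clusters and the rest was not tested. SPEXI_LOCUS6883 in cluster 21 went from 297 to 201 CPM (169 and 237 UMIs), a ratio of 0.675 (0.552 to 0.827), while its ratio in the whole library was 19.7. In the same cluster, SPEXI_LOCUS2103 went from 229 to 89.8 CPM (ratio 0.393) and SPEXI_LOCUS6898 from 158 to 19.5 CPM (ratio 0.125). The naïve and challenged cells of cluster 21 were unlike in depth, with medians of 1396 and 5398 UMIs. The part of this difference in the 3 ratios was not tested. SPEXI_LOCUS5114 in cluster 3 went from 26.03 to 8.70 CPM (ratio 0.340). SPEXI_LOCUS6216 in cluster 8 went from 71.1 to 25.9 CPM (ratio 0.364), and SPEXI_LOCUS9584 in cluster 2 from 11.3 to 4.28 CPM (ratio 0.385).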

How the results depend on the processing

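The rule gave 71 genes, and 46 with at least 50 CPM, 35 with a ratio of at least 3 and 38 without the cells of clusters 6, 14 and 17, of which 33 were members. It gave 70 genes, 56 of them members, when each cell was scaled to the same total, and 83, with all 71 members, with the TMM factor. The median log2 ratio of the members was 1.57, and it was 1.66 with the TMM factor, which moved the median of all genes at the floor by 0.10, and 1.23 without clusters 6, 14 and 17. The 2 members that rose in every cluster became 5 at resolution 0.4 and 5 in clusters holding 100 or more cells of both libraries, and 0 when 2.2-fold was asked. The median share of the rise within clusters was 64.2%, against 58.5% with all variable genes, 81.1% at resolution 0.4, 60.7% at resolution 1.2 and 84.0% with RPCA integration. The largest share held by 1 cluster was 29.5%, against 52.2% at resolution 0.4 and 40.4% with RPCA. The median share of challenged cells with a UMI was 5.88% thinned and 20.9% not thinned. No named member changed direction under another scaling. No paired analysis was possible because each group had 1 library.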
